A study of Mus musculus with 4 samples.

Results

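The 9 genes Mbp, Mobp, Mog, Mag, Cldn11, Cnp, Mal, Ermn and Ugt8a make proteins of central nervous system myelin or, for Ugt8a, one of its lipids. They were taken by name, with earlier results of these data known, from the 20136 genes in the count tables of 4 Drop-seq libraries. In Drop-seq a single cell is caught in a droplet with a barcoded bead, its mRNA is captured at the 3′ end, and each captured molecule is counted once by a unique molecular identifier (UMI). The tissue was the BNST (bed nucleus of the stria terminalis), which belongs to the extended amygdala, and each library held cells from punches of 6 mice that had been pooled. All 24 mice were male, wildtype and C57BL/6J, and no treatment is named for them. Cells could not be assigned to mice, so n = 4 pools throughout, and each comparison set classes of cells from the same libraries side by side.

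Oligodendrocytes wrap axons in myelin, a stack of compacted membrane that insulates them. They arise from dividing precursors that carry Pdgfra, pass through a short committed stage marked by Gpr17, Bmp4 and Enpp6, and then make myelin proteins and lipids in bulk. Myelin mRNAs are among the most abundant of brain tissue, and Mbp mRNA is carried out into the processes of the cell before it is translated. Free mRNA in a cell suspension can enter the droplets of cells that do not make it.

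Cells were classed without the 9 genes. After filters on genes and mitochondrial UMIs, 58 of 4239 cells were removed as doublets, and the clusters of the other 4181 were named from marker genes. These names stand for clusters that resemble a cell type, and "-like" is left out from here on. There were 130 oligodendrocyte precursors (25 to 47 in a library), 115 committed precursors (21 to 37), 865 mature oligodendrocytes (191 to 232), 1738 neurons (288 to 565) and 405 astrocytes (85 to 113). A further 678 cells in 2 neuronal clusters with Dlx1, a marker of neuroblasts, among their 10 leading genes were left unnamed and kept out of the neurons. Their median depths were 880.5, 1820, 1362, 3388.5 and 812 UMIs per cell. Levels are in CPM, the UMIs of a gene in a class and library scaled to a common total. The clusters were named from the markers summed here, so the sums describe the classes and do not test the names. Markers of mature oligodendrocytes, 15 in all, summed to between 29728 and 33882 CPM over the libraries in mature cells. In precursors they summed to between 1459 and 1827 CPM. The 7 precursor markers summed to between 8745 and 10998 CPM in precursors and to between 13.1 and 45.0 in mature cells. The libraries held between 2640399 and 5652342 UMIs, and 15 barcode sequences occurred in more than 1 of them.

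The committed class had several sources. It held cells of the oligodendrocyte lineage with at least 2 UMIs of Gpr17, Bmp4 and Enpp6 together. Of its 115 cells, 35 came from a cluster of 36 cells led by these genes, which carried all of them (160 UMIs of Gpr17, 88 of Bmp4 and 123 of Enpp6). Another 36 came from the precursor cluster, where Gpr17 had 140 UMIs, Bmp4 2 and Enpp6 0. The remaining 44 came from mature clusters, 33 of them from the mature cluster led by Klk6 and Anln, where Enpp6 had 142 UMIs and Gpr17 and Bmp4 had 0. The 9 members together were at 632 ± 447 CPM in the cells from the precursor cluster, at 22034 ± 8777 CPM in the committed cluster and at 49615 ± 8229 CPM in the cells from mature clusters (mean ± SD, n = 4 libraries, as for all such values below). For this reason each result on committed precursors is given both for the UMI rule and for the committed cluster alone, which was added after these sources were seen. The committed cluster was small, with 15, 6, 8 and 7 cells in libraries 1 to 4.

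In mature oligodendrocytes the 9 members took up 4.62 ± 0.590% of all UMIs, or 74.3 ± 19.3 UMIs per cell. In precursors they took up 0.0507 ± 0.0182%, or 0.527 ± 0.211 UMIs per cell, which is close to the 0.516 ± 0.0612 UMIs per cell in neurons. At a fixed depth of 500 UMIs, a mature cell held a UMI of 7.37 ± 0.218 of the 9 members, a committed precursor by the UMI rule of 3.78 ± 0.327, a precursor of 0.237 ± 0.0605, an astrocyte of 0.172 ± 0.0397 and a neuron of 0.0875 ± 0.0291. The same order of classes held in CPM for the mean of the members together, with astrocytes at 367 ± 88.4 and neurons at 139 ± 36.9 CPM. Levels are UMIs and are not divided by transcript length, which a 3′ count does not call for, but capture can differ between genes, so levels are compared between classes and not between genes.

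**Figure D1:**
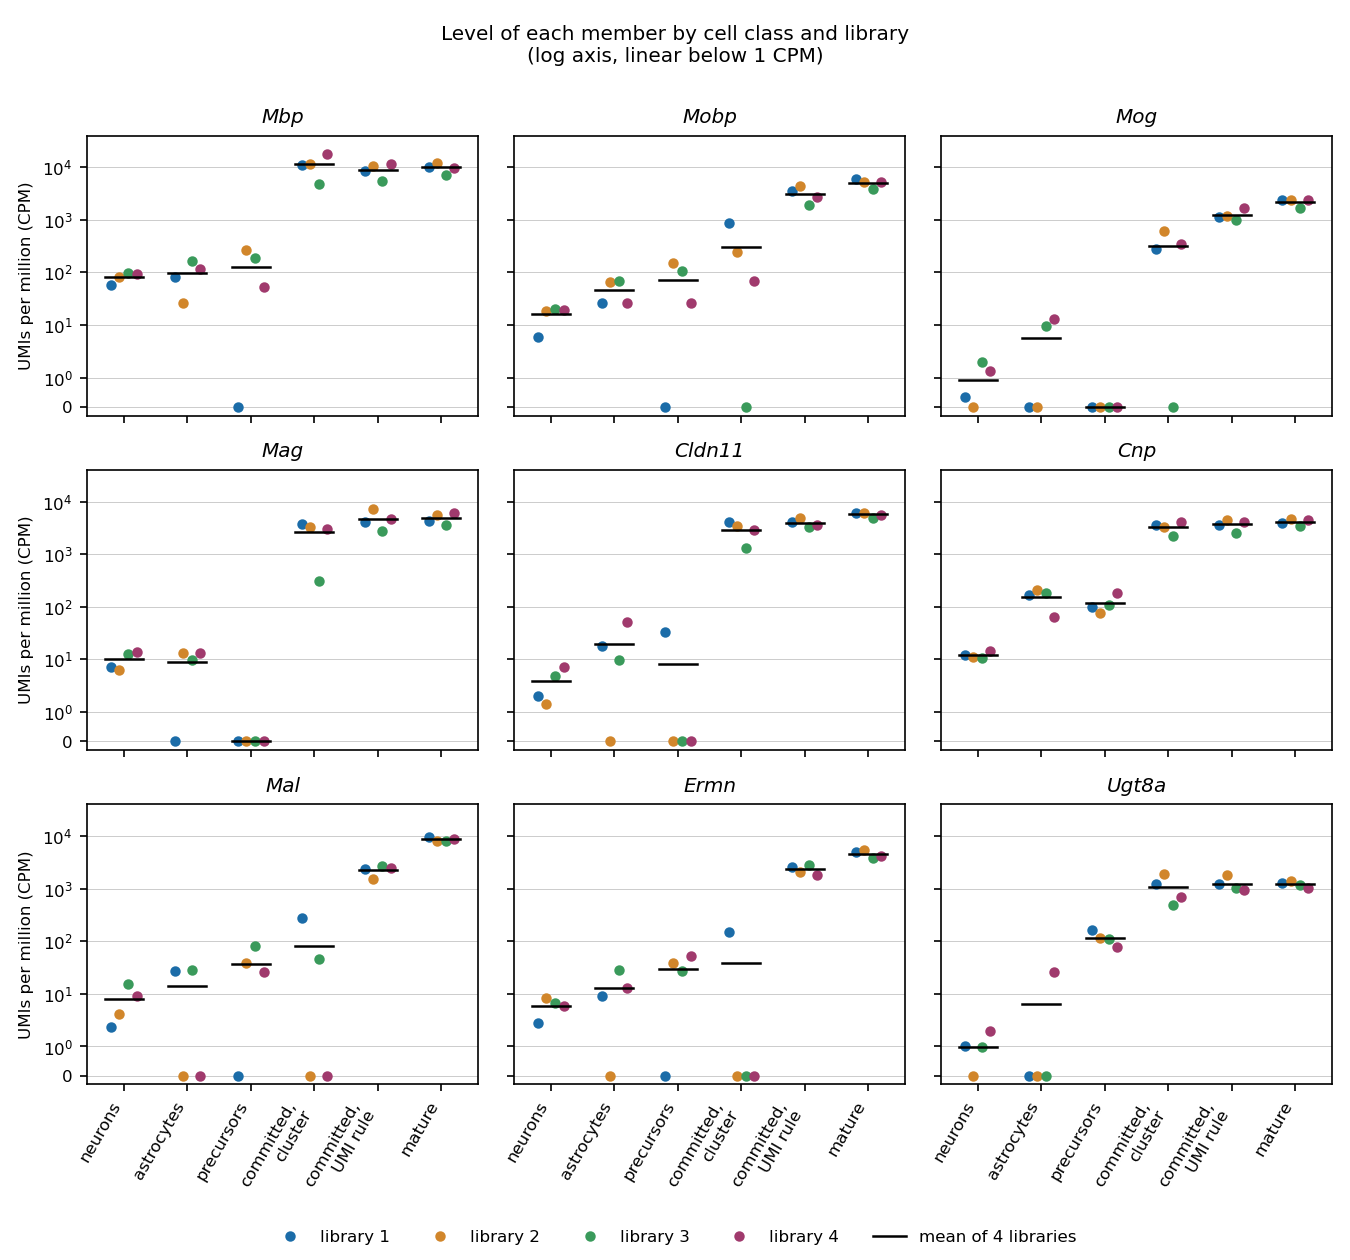
Each panel shows 1 member, with a point for each of the 4 libraries and a bar for their mean in CPM on a log axis that is linear below 1 CPM. Committed precursors are shown as the cluster and by the UMI rule. In every panel the mature points lie above all points of neurons, astrocytes and precursors, and Mobp, Mog, Mal and Ermn are much lower in the committed cluster than in mature cells.

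Mbp and Mobp encode basic proteins of compact myelin, and Mbp is needed to bind the cytoplasmic faces of the membrane together. Mbp was at 10215, 12237, 7161 and 9853 CPM in mature cells of libraries 1 to 4 and at 0, 269.7, 189 and 52.2 CPM in precursors, a difference of 6.90 ± 0.27 on the log2 scale (edgeR estimate ± SE, adjusted p = 4.92e-54). Mobp was at 5963, 5199.8, 3882 and 5168 CPM in mature cells and at 0, 154, 108 and 26.1 CPM in precursors, a difference of 6.76 ± 0.30 (edgeR adjusted p = 1.57e-48). For both genes the lowest mature library was far above the highest precursor library, and the 16 Mbp and 9 Mobp UMIs of the precursors were all in libraries 2 to 4.

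Mag and Mog encode adhesion proteins at the edges of the sheath, Mag on the membrane next to the axon and Mog on the outer surface. Mag was at 4354, 5528, 3654 and 6011 CPM in mature cells, and Mog at 2357, 2395, 1687 and 2339 CPM. Neither gene had a UMI in the 130 precursors, whose 131541 UMIs in all put the limit of 3 counts at 22.8 CPM. Over the summed classes Mag was therefore at least 208-fold and Mog at least 96.1-fold higher in mature cells. A count of 0 in 130 precursors still allows a UMI in up to 2.31% of such cells.

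Cldn11 encodes the claudin of myelin tight junctions. It was at 6094, 6095, 4949 and 5610.5 CPM in mature cells, and 1 UMI was found in precursors, in library 1. The ratio of the summed levels was 751, with a counting interval from 135 to 29669 (exact Poisson, 95%). Its level in precursors thus rests on 1 UMI and is known only within this wide interval.

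Cnp encodes an enzyme that keeps cytoplasmic channels open in myelin, and Ermn encodes ermin, a cytoskeletal protein of the mature sheath. Cnp was at 3956, 4731, 3369 and 4374 CPM in mature cells and at 99.1, 77.0, 108 and 183 CPM in precursors, a difference of 5.63 ± 0.25 on the log2 scale. Ermn was at 5018, 5377, 3820.4 and 4183 CPM in mature cells and at 0, 38.5, 27.0 and 52.2 CPM in precursors, a difference of 7.79 ± 0.33. Cnp had a UMI in all 4 precursor sums and Ermn in 3 of them, and neither class came near the other.

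Mal encodes a proteolipid of lipid-rich membrane domains, and Ugt8a the enzyme that makes galactosylceramide, a main lipid of myelin. Mal was at 9641, 8093, 7965 and 8649.9 CPM in mature cells and at 0, 38.5, 81.1 and 26.1 CPM in precursors, a difference of 8.41 ± 0.31 on the log2 scale. Ugt8a was at 1296, 1384, 1194 and 1027 CPM in mature cells and at 165, 116, 108 and 78.3 CPM in precursors, a difference of 3.98 ± 0.28. Ugt8a was the member with the highest precursor level relative to the mature level, 9.44 ± 2.28%, against 2.88 ± 1.08% for Cnp and at most 1.56% as the mean for any other member.

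All 9 members passed the test as higher in mature cells than in precursors, in 4 of 4 libraries each. The largest adjusted p was 1.62e-28, for Ugt8a (edgeR quasi-likelihood test, Benjamini-Hochberg over 3991 genes). Of all genes tested, 46.2% passed in either direction and 23.4% as higher in mature cells. The median difference was 7.79 on the log2 scale over the members, or 6.90 with Mag and Mog at their bounds, and 0.03 over all genes. With library totals in place of TMM scaling the median of all genes moved by -0.56, and all members stayed higher. The classes had been drawn from other genes of the same cells, so this comparison describes how the members follow those genes. The spread behind the p-values was estimated in a single fit over the 20 sums of 5 classes. The p-values thus do not measure the spread of this difference between the 4 pools alone.

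Sequences before the gene starts of 4 members are printed because the members rose together. Positions are those of GENCODE vM21 on GRCm38, and Mbp is not included. Mobp lies on chromosome 9 from 120149707 to 120181484 (plus strand), Mog on chromosome 17 from 37010743 to 37023398 (minus), Mag on chromosome 7 from 30899176 to 30914873 (minus) and Cldn11 on chromosome 3 from 31149920 to 31164324 (plus). Cnp lies on chromosome 11 from 100574904 to 100591729 (plus), Mal on chromosome 2 from 127633226 to 127656695 (minus), Ermn on chromosome 2 from 58045113 to 58052864 (minus) and Ugt8a on chromosome 3 from 125865271 to 125938619 (minus). RefSeq promoter windows of build GRCm38.p6 were matched by symbol for 8 members. They were searched on both strands for ACAAAG, the core read by SOX factors such as SOX10, and for CTGGNAC. The latter holds letters of the MYRF motif with any base allowed at N, so it can match more than that motif. Both were chosen after the expression values were known. ACAAAG was found upstream of Mobp, Mag and Cnp, and CTGGNAC upstream of Mog, Mag and Cnp, with no overlap between matches. Of 32851 windows of 250 bases in the table, 16.5% held ACAAAG and 16.1% held CTGGNAC. Below, capitals mark the matches on either strand in 5′ to 3′ order of the gene, and bases after the annotated starts are left out. Mag has 3 entries with different starts, and the one printed ends before a RefSeq start that lies upstream of the GENCODE start.
Mobp (chr9:120149492-120149706, plus): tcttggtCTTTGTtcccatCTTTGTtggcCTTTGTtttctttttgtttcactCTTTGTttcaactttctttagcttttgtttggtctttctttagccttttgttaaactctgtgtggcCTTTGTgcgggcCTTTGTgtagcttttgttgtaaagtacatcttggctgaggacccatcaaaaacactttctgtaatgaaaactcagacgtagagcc
Cnp (chr11:100574689-100574903, plus): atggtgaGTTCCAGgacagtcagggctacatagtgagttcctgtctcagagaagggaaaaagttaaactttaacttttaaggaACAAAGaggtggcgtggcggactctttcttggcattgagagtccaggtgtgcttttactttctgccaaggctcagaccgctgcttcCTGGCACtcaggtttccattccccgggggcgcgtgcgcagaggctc
Mag (chr7:30914923-30915172, minus): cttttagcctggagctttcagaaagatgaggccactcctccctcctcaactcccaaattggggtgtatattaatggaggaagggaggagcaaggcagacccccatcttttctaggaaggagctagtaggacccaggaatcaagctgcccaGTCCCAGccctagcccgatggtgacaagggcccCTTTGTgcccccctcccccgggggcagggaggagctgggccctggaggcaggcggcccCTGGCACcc
Mog (chr17:37023399-37023648, minus): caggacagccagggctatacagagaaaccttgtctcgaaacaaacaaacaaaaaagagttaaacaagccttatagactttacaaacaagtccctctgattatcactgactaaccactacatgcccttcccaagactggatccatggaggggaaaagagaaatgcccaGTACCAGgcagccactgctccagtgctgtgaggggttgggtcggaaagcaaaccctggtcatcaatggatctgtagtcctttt
The Mobp window held 6 copies of ACAAAG, all on the strand opposite to the gene, and 1 of the 32851 windows held as many. A match is a run of letters and not a bound site. The windows of Cldn11, Mal, Ermn and Ugt8a held neither motif, and these genes rose with the others.

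The committed cluster split the members. In summed counts, Mbp, Ugt8a, Cnp, Mag and Cldn11 were already at a mean of 50.2% or more of their mature level. Mog, Mobp, Mal and Ermn were at 13.2% or less. Mbp was at 11214, 11560, 4861 and 17899 CPM in libraries 1 to 4 of the committed cluster, which is 113 ± 48.7% of the mature level of the same library, and 29 of 36 cells held at least 1 of its UMIs, with a median of 11. Cnp was at 3561, 3356, 2206 and 4179 CPM, or 80.5 ± 14.5% of the mature level, also in 29 of 36 cells. Ugt8a was at 1238, 1865, 495 and 696 CPM, or 84.9 ± 39.9%, and was found in 18 of 36 cells. The median cell held 5 UMIs of Cnp and 0.5 of Ugt8a. These levels are sums over uneven cells, and the highest cell, in library 1, held 155 of the 902 Mbp UMIs. For these genes the committed and mature libraries overlapped.

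Mag and Cldn11 were in between. Mag was at 3789, 3232, 315 and 3064 CPM, or 51.3 ± 32.4% of the mature level, and was found in 24 of 36 cells. Cldn11 was at 4041, 3480.4, 1305 and 2856 CPM, or 50.2 ± 17.1%, in 25 of 36 cells. The median cell held 1 UMI of Mag and 2 of Cldn11. For each gene the highest cell was in library 1, with 63 of the 227 Mag UMIs and 65 of the 258 Cldn11 UMIs. The committed and mature libraries overlapped for Mag and did not overlap for Cldn11. Library 3 was the lowest of the 4 for both genes, and its committed cells held 9227 CPM of the members together against 24363 to 29113 CPM in the other libraries.

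Mog, Mobp, Mal and Ermn were scarce in the committed cluster. Mog was at 278, 621.5, 0 and 348 CPM, or 13.2 ± 10.7% of the mature level, with 21 UMIs in 9 cells. Mobp was at 884, 248.6, 0 and 69.6 CPM, or 5.24 ± 6.70%, with 38 UMIs in 5 cells, 35 of them in library 1. Mal had 12 UMIs in 4 cells and Ermn 6 UMIs in 1 cell, which came to 0.862 ± 1.37% and 0.755 ± 1.51% of the mature level. All 6 Ermn UMIs and 11 of the 12 Mal UMIs were in library 1. Mal and Ermn were thus scarce in a cluster whose summed Mbp level overlapped that of mature cells.

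**Figure D2:**
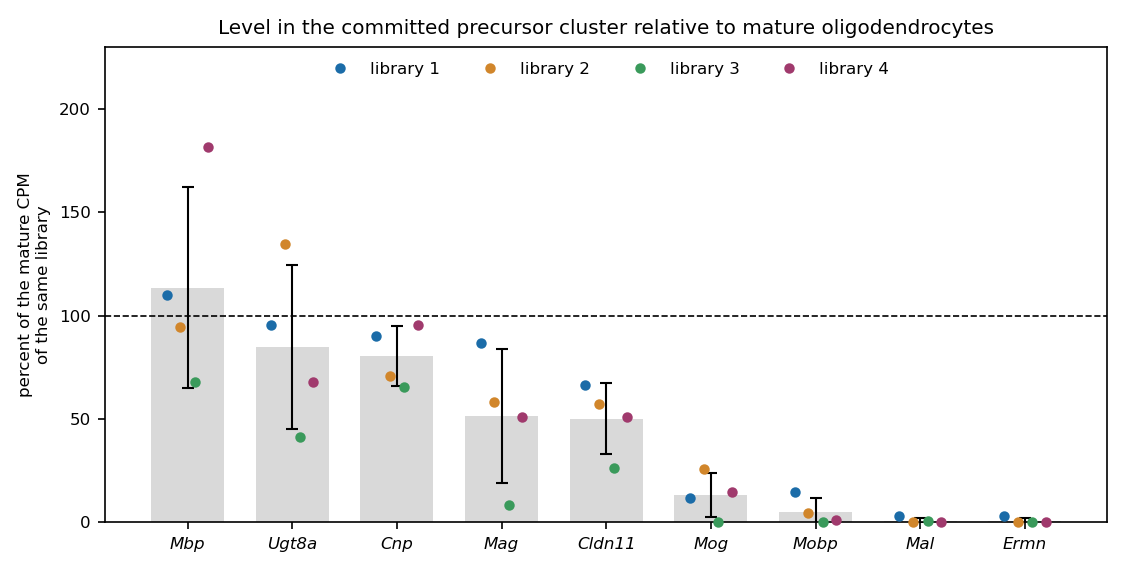
Bars give the mean level of each member in the committed precursor cluster as a percent of the level in mature oligodendrocytes of the same library, with SD over 4 libraries, and points give the libraries. The dashed line marks the mature level; Mbp, Ugt8a and Cnp lie near it, Mag and Cldn11 near the middle, and Mog, Mobp, Mal and Ermn near the bottom.

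The tests of the committed cluster used classes from clusters alone. Their precursors were all 166 cells of the precursor cluster, and their mature cells were all those of the mature clusters. The percents of the mature level above used the 865 mature cells. Against these precursors, 7 of 9 members were called as higher in the committed cluster, where 18.2% of 3683 genes passed in either direction and 7.71% as higher. Mbp differed by 6.25 ± 0.31 on the log2 scale, Cnp by 4.44 ± 0.29, Ugt8a by 2.85 ± 0.35 and Cldn11 by 7.34 ± 0.46, while Mag was at least 167-fold and Mog at least 15.5-fold higher. Mobp was called with a difference of 2.90 ± 0.61 (edgeR adjusted p = 6.69e-05), but without library 1, which held 35 of its 38 UMIs, the estimate was -0.27 on 3 UMIs in the cluster. Mal (2.01 ± 0.89, edgeR adjusted p = 0.104) and Ermn (1.31 ± 1.03, adjusted p = 0.431) did not pass. Without library 1, 6 members passed. The median difference was 4.44 over the members, 3.95 with Mag and Mog at their bounds, and -0.22 over all genes.

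By the UMI rule all 9 members passed as higher in committed precursors than in precursors, where 22.6% of 3991 genes passed in either direction and 13.7% as higher. The median difference was 6.45 over the members, 6.20 with Mag and Mog at their bounds, and 0.06 over all genes. Mal (6.20 ± 0.39, edgeR adjusted p = 5.42e-32) and Ermn (6.55 ± 0.38, adjusted p = 5.99e-35) were among them, although they did not pass in the cluster alone. In the 44 cells that the rule took from mature clusters, Mal was at 4724 ± 1420 and Ermn at 4739.9 ± 957 CPM.

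Between the committed cluster and all cells of the mature clusters, all 9 members passed as higher in mature cells. Of 3683 genes, 29.6% passed in either direction and 16.9% as higher. The differences ran from 0.50 ± 0.18 for Mbp (edgeR adjusted p = 0.0218) through 0.96 ± 0.17 for Cnp, 0.97 ± 0.20 for Ugt8a and 1.63 for both Mag (± 0.19) and Cldn11 (± 0.18) to 3.73 ± 0.27 for Mog, 4.16 ± 0.27 for Mobp, 6.51 ± 0.32 for Mal and 6.61 ± 0.34 for Ermn. Mbp, Cnp and Ugt8a differed least, and Mog, Mobp, Mal and Ermn most. The scaling mattered for the first of these: with library totals the median of all genes moved by -0.58, Mbp came to -0.15, lower in mature cells (edgeR adjusted p = 0.551), and Cnp (0.32, adjusted p = 0.115) and Ugt8a (0.35, adjusted p = 0.192) did not pass. Mag, Cldn11, Mog, Mobp, Mal and Ermn passed as higher in mature cells under both scalings.

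By the UMI rule 8 of 9 members passed as higher in mature cells than in committed precursors, where 29.4% of 3991 genes passed in either direction and 13.2% as higher. Ugt8a did not pass (0.30 ± 0.14, edgeR adjusted p = 0.0983). Mal differed by 2.21 ± 0.15, Ermn by 1.24 ± 0.14, Mog by 1.12 ± 0.14, Mobp by 1.02 ± 0.14 and Cldn11 by 0.83 ± 0.13, and these 5 also passed with library totals, without the library block, with a limit of 5% on mitochondrial UMIs and with doublets kept. Cnp (0.47 ± 0.13), Mbp (0.45 ± 0.14) and Mag (0.38 ± 0.13) passed in none of these 4 settings.

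The other genes of myelin were read beside the members. Of 22 other myelin and myelin-membrane genes tested, 21 rose from precursors to mature cells and 0 fell, with a median of 4.25 on the log2 scale, or 3.34 with the genes at 0 in precursors at their bounds, against 0.03 over all genes, of which 23.4% rose. Lpar1, a receptor for lysophosphatidic acid, went from 0 to 918 ± 72.7 CPM and was at 182 ± 126 CPM in the committed cluster. Lgi3, which encodes a secreted protein of the LGI family, went from 0 to 563 ± 149 CPM and was at 394 ± 134 CPM in the committed cluster. Tmem125 went from 0 to 222 ± 60.1 CPM, and Sept4, which encodes a septin of the myelin scaffold, from 20.0 ± 25.8 to 3091 ± 606 CPM. Tmem125 was at 18.9 ± 37.9 CPM in the committed cluster, so its level there was low next to the mature one, as for Mal and Ermn. In the committed cluster against precursors 14 of 22 rose and 2 fell, where 7.71% of all genes rose.

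Of 9 genes of myelin lipid synthesis tested, 8 rose from precursors to mature cells and 0 fell, with a median of 2.79, where 23.4% of all genes rose. Fa2h, which hydroxylates the fatty acids of myelin lipids, rose by 3.71 ± 0.31 and Elovl7, a fatty acid elongase, by 3.52 ± 0.42. Cers2, a ceramide synthase for very long chains, rose by 2.99 ± 0.30 and Scd2, a desaturase, by 2.88 ± 0.18. Elovl7 was at 567 ± 139 CPM in the committed cluster and at 357 ± 71.1 CPM in mature cells. In the committed cluster against precursors 6 of 9 rose and 0 fell, where 7.71% of all genes rose.

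The transcription factors of the lineage moved in both directions. Of 16 tested, 4 rose and 7 fell from precursors to mature cells, with a median of -0.83. Of all genes, 46.2% were called in either direction and 23.4% rose, so the 4 that rose are near the share of all genes. Myrf, the regulator of myelin genes, had 0 UMIs in precursors and was at 149 ± 167 CPM in the committed cluster and at 167 ± 76.3 CPM in mature cells. St18 had 0 UMIs in precursors and was at 228 ± 119 CPM in the committed cluster and at 215 ± 58.9 CPM in mature cells. Sox5 and Sox6, which hold back differentiation, were at 236 ± 68.2 and 266 ± 104 CPM in precursors and had 0 UMIs in mature cells, and Sox6 was at 422 ± 182 CPM in the committed cluster. Myrf and St18 were thus counted in the same cluster in which Mal and Ermn were scarce.

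Of 9 genes for RNA binding and transport proteins linked to Mbp mRNA, 3 rose and 1 fell from precursors to mature cells, and the median was 0.02 against 0.03 over all genes. The 4 of 9 called are near the 46.2% of all genes called, and its genes are given as single values. Qk, which encodes quaking, an RNA-binding protein that retains and stabilises myelin mRNAs, rose by 1.59 ± 0.16 and was at 3309 ± 565 CPM in the committed cluster and at 2539.85 ± 309 CPM in mature cells. Kif1b, a kinesin needed to carry Mbp mRNA, rose by 2.43 ± 0.18 to 2765 ± 657 CPM. Fyn, the kinase that starts local Mbp translation, was at 3779.95 ± 694 CPM in the committed cluster against 243 ± 73.2 in precursors and 55.7 ± 9.26 in mature cells. Dync1h1, the heavy chain of dynein, rose by 1.30 ± 0.39.

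Precursors were compared with neurons and astrocytes to see which members stood above the level that free RNA gives in cells not known to make myelin. Ugt8a was at 1.03, 0, 0.978 and 1.97 CPM in neurons of libraries 1 to 4 and at 26.0 CPM in astrocytes of library 4 and 0 in the others. In precursors its 15 UMIs lay in 15 different cells of all 4 libraries, and it passed as higher than in neurons (6.25 ± 0.72, edgeR adjusted p = 9.58e-14) and astrocytes (3.82 ± 0.89, adjusted p = 2.06e-04). It was the only member to pass against both on full counts, and its share of precursors with a UMI at a depth of 500 UMIs was 6.49 ± 3.39% against 0.0702 ± 0.0916% of neurons and 0.400 ± 0.799% of astrocytes.

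Cnp passed against neurons but not against astrocytes. It was at 117 ± 45.9 CPM in precursors, at 12.1 ± 1.65 CPM in neurons (difference 3.07 ± 0.56, edgeR adjusted p = 7.72e-07) and at 157 ± 63.3 CPM in astrocytes (-0.93 ± 0.44, adjusted p = 0.102). Mobp (2.06 ± 0.73, edgeR adjusted p = 0.0125) and Mal (2.25 ± 0.97, adjusted p = 0.0412) also passed against neurons, on 9 and 5 UMIs in precursors. Without library 2 or library 3, Cnp and Ugt8a alone passed. These tests compare CPM, and neurons were deeper, with a median of 3388.5 UMIs per cell against 880.5 in precursors. In UMIs per cell over all libraries, Mobp was at 0.0692 in precursors and 0.0535 in neurons, and Mal at 0.0385 and 0.0247. Cnp was at 0.123 and 0.0483, and Ugt8a at 0.115 and 0.00403. The part of depth in these calls was not tested. Mbp, with 16 UMIs in precursors, was at 128 ± 124 CPM there against 81.5 ± 17.6 in neurons and 96.7 ± 58.0 in astrocytes and passed against neither.

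In all, 4 of 9 members passed as higher in precursors than in neurons, where 52.7% of genes passed in either direction and 21.2% as higher. Against astrocytes 1 of 9 passed, where 30.3% passed in either direction and 13.1% as higher. Mag and Mog had 0 UMIs in precursors and 64 and 5 UMIs in neurons. Over all neurons this came to 9.28 and 0.725 CPM, below the limit of 22.8 CPM in precursors. These counts thus show no difference between the 2 classes. Marker genes of other cell types were also counted in precursors: 13 neuron markers summed to between 1884 and 3378 CPM in precursors and 12 astrocyte markers to between 1233 and 2010 CPM, with Gfap and Agt at 0, and their part in the result was not tested. With all cells thinned to 500 UMIs, Ugt8a and Cnp passed as higher than in neurons. Against astrocytes 0 members then passed by edgeR, 3 had an unadjusted p under 0.05 (1 higher and 2 lower), and DESeq2 on full counts called Ugt8a alone.

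The members stood in other ratios to each other in neurons and astrocytes than in mature oligodendrocytes. In mature cells Mbp gave 21.2 ± 2.06% of the members' UMIs. It gave 59.3 ± 3.72% of the 876 member UMIs of neurons, a difference of 38.1 ± 2.94 percentage points that was present in 4 of 4 libraries (exact sign-flip permutation p = 0.12, the smallest that 4 libraries allow, adjusted p = 0.199 over 27 comparisons). In barcodes with fewer than 200 genes, too few to be counted as cells here, Mbp gave 31.6 ± 5.32% of 2740 member UMIs, 10.4 ± 3.59 points above mature cells and also higher in 4 of 4 libraries. The mean share of Mbp was thus highest in neurons.

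Mal and Cldn11 had the largest fall in share in neurons, in percentage points. Mal gave 18.8 ± 2.25% of member UMIs in mature cells, 15.7 ± 2.22% in low barcodes and 5.16 ± 2.98% in neurons. Cldn11 gave 12.4 ± 0.581%, 8.78 ± 1.68% and 2.65 ± 1.38%. Both were lower in neurons than in mature cells in 4 of 4 libraries, and so were Ermn, Mog, Mag and Ugt8a. The shares of a class add up to a fixed total, so the higher share of Mbp by itself lowers the others. Mobp, at 10.9 ± 0.921% in mature cells and 11.0 ± 3.20% in neurons, did not differ in a steady direction. Nor did Cnp, at 8.89 ± 0.555% and 9.23 ± 2.91%.

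In astrocytes Cnp had the largest share. It gave 43.6 ± 20.0% of their 138 member UMIs against 8.89 ± 0.555% in mature cells, higher in 4 of 4 libraries, by 10.7 to 57.4 points. Its level there was 169.5, 209, 182 and 65.0 CPM, and 53 of 405 astrocytes held at least 1 UMI of it. Cnp was 4.00 ± 0.33 lower in neurons than in astrocytes on the log2 scale (edgeR adjusted p = 9.86e-23), and Cldn11 (-2.65 ± 0.83) and Mobp (-2.01 ± 0.54) were also lower in neurons. These 3 of 9 members passed as lower, where 69.8% of genes passed in either direction and 31.4% as lower, and the same 3 passed with library totals. Cnp overlaps the 3′ part of Dnajc7 on the opposite strand (chromosome 11, 100582818 to 100620168), and the counting strand is not given, so Cnp UMIs may include some of Dnajc7. Dnajc7 itself was at 119 ± 19.1 CPM in astrocytes, 169.6 ± 22.8 in neurons and 139 ± 27.4 in mature cells.

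**Figure D3:**
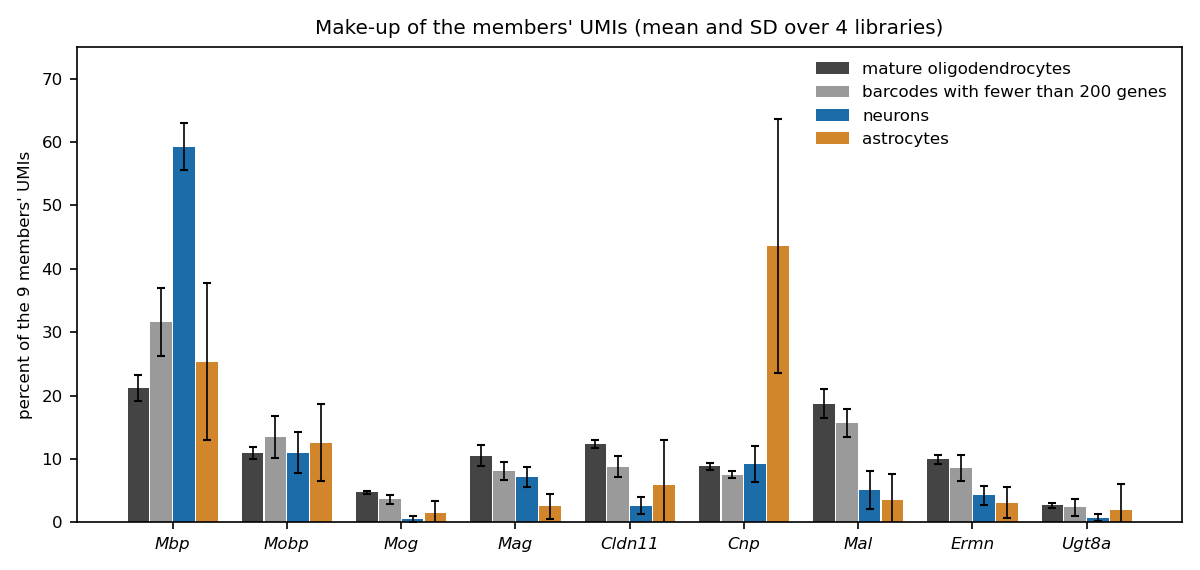
Bars give the percent of the 9 members' UMIs that came from each gene, as mean and SD over 4 libraries, in mature oligodendrocytes, barcodes with fewer than 200 genes, neurons and astrocytes. Mbp is the tallest bar in neurons at 59.3% and Cnp in astrocytes at 43.6%, while low barcodes resemble mature cells more closely.

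Neurons were also split by their total UMIs, a split that by itself puts more UMIs of a gene into the deeper cells. Neurons with fewer than 2000 UMIs held 0.136 ± 0.0483 Mbp UMIs per cell, those with 2000 up to 5000 held 0.280 ± 0.110 and those with 5000 or more held 0.491 ± 0.0625. The other 8 members together held 0.203 ± 0.0935, 0.180 ± 0.0902 and 0.276 ± 0.0287 UMIs per cell in the same neurons. Between the deepest and the shallowest neurons Mbp differed by 0.355 ± 0.0905 UMIs per cell (exact sign-flip permutation p = 0.12, adjusted p = 0.167 over 4 comparisons) and the other members by 0.0726 ± 0.0825. As a share of the cell's RNA both were lower in the deepest neurons in 4 of 4 libraries. Mbp was at 67.1 ± 6.23 CPM there against 128 ± 40.0 CPM in the shallowest neurons, and the other 8 members were at 38.3 ± 8.21 against 192 ± 89.2 CPM. Gene counts do not separate the transcript forms of Mbp.

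**Figure D4:**
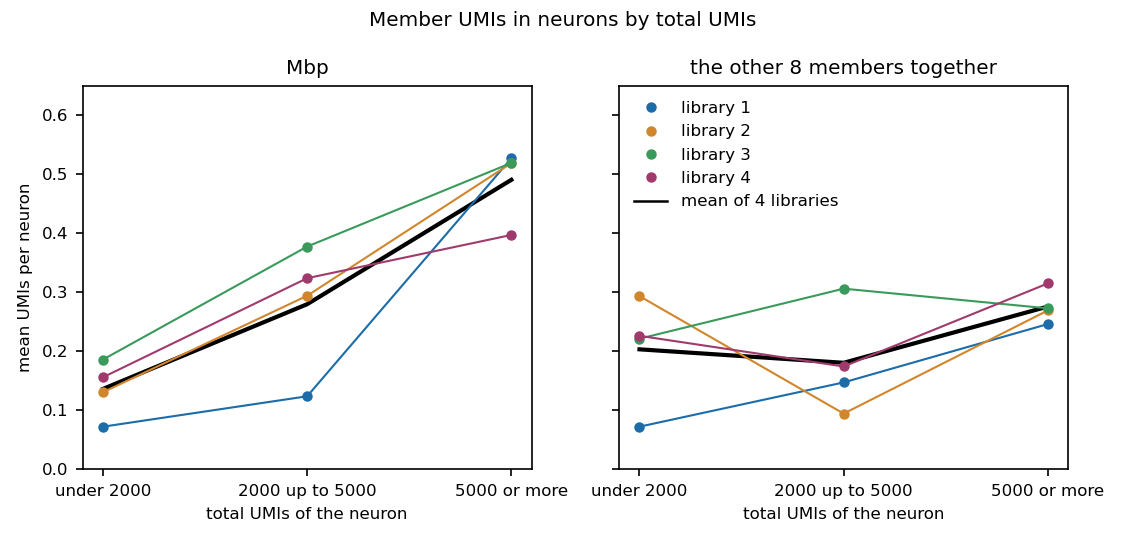
Mean UMIs per neuron are plotted against the total UMIs of the neuron, for Mbp on the left and for the other 8 members together on the right, with a line for each library and a black line for their mean. The Mbp lines go up in all 4 libraries, to a mean of 0.491, and the lines of the other members cross.

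Mature oligodendrocytes were then divided by markers outside the member list into 207 cells with more Klk6 and Anln than Opalin and Il33 UMIs and 560 cells with the reverse, and 98 cells with ties or none were left out. Klk6 encodes a secreted protease and Opalin a membrane protein of oligodendrocytes. In the Klk6 and Anln cells of libraries 1 to 4, Klk6 had a UMI in 10, 7, 6 and 13 cells and Anln in 44, 42, 61 and 56. The division thus rested mostly on Anln. The 33 cells that the UMI rule took from the mature cluster led by Klk6 and Anln were not among them. Mal was at 5704, 4906, 5230.2 and 4747 CPM in the Klk6 and Anln cells and at 10887, 9243, 9697 and 10625 CPM in the Opalin and Il33 cells, which is 51.0 ± 4.28% of the latter. Cnp was at 3052, 3563, 2987 and 3098 CPM against 4258, 5231, 3669 and 4883 CPM, or 71.2 ± 7.62%. The libraries of the 2 kinds did not overlap for either gene. The median depth per cell was between 1023 and 1966 UMIs over the libraries in the Klk6 and Anln cells and between 1093 and 1743 in the others.

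Ermn went the other way. It was at 6199, 6016, 4546 and 5055 CPM in the Klk6 and Anln cells and at 4672, 5086, 3373 and 3932 CPM in the Opalin and Il33 cells, 129 ± 7.34% and higher in 4 of 4 libraries, although the libraries overlapped because they differed in level. Ugt8a was also higher in 4 of 4 libraries, at 116 ± 5.11%, but did not pass (edgeR adjusted p = 0.220). Mbp, at 107 ± 7.08%, and Mog, at 92.7 ± 12.3%, did not pass either.

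Of the 9 members, 1 was called as higher and 5 as lower in the Klk6 and Anln cells, where 11.6% of 2458 genes passed in either direction, 5.94% as higher and 5.7% as lower. The difference was -0.98 ± 0.06 on the log2 scale for Mal (edgeR adjusted p = 2.09e-48), -0.50 ± 0.07 for Cnp (adjusted p = 3.90e-10) and 0.35 ± 0.07 for Ermn (adjusted p = 7.08e-06). Cldn11 (-0.30 ± 0.07), Mobp (-0.25 ± 0.07) and Mag (-0.20 ± 0.07) were lower by less. The median of the members was -0.20 and that of all genes -1.23e-04. These p-values come from a separate fit over the sums of both kinds, in which edgeR shares information on the spread between genes. They thus do not measure the spread of a difference between the pools alone. Without a block for the library, Mal alone passed. With DESeq2, with cells thinned to 500 UMIs, or without a deep mature cluster of 64 cells led by Opalin and Arpc1b, Mal and Cnp were called lower and Ermn higher, and Cldn11, Mobp and Mag did not pass. Without the deep cluster Ugt8a also passed as higher.

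**Figure D5:**
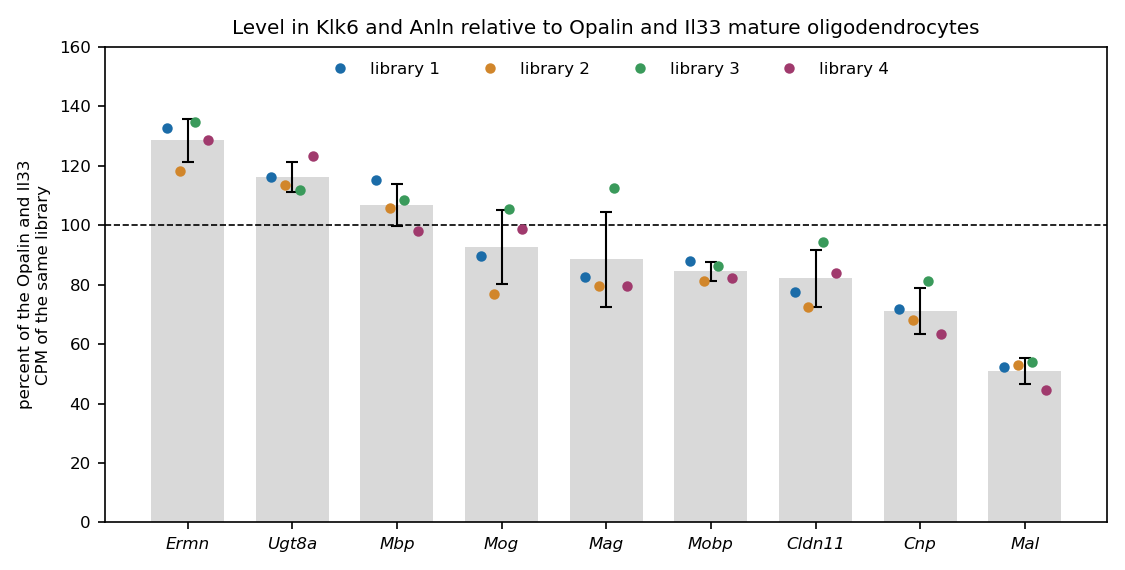
Bars give the mean level of each member in Klk6 and Anln mature oligodendrocytes as a percent of that in Opalin and Il33 cells of the same library, with SD over 4 libraries and a point for each library. Mal lies at a mean of 51.0%, and all 4 points of Ermn and Ugt8a lie above the dashed line at 100%.

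The genes most like the members were found by the correlation of log2(CPM + 1) with the members' mean over 20 sums, 5 classes in each of 4 libraries. Nipal4 (Pearson r = 0.979), Tmem125 (0.978), Pdlim2 (0.976) and Cyp2j12 (0.974) were among the highest of 10916 genes with at least 50 UMIs. The 20 sums share libraries, and the order is a description. Nipal4 and Pdlim2 had 0 UMIs in precursors and in the committed cluster and were at 71.7 ± 7.37 and 462 ± 151 CPM in mature cells. Among the members themselves the r with their mean ran from 0.852 for Ugt8a, the member that passed against both neurons and astrocytes in precursors, to 0.979 for Mog and Ermn.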

How the data were processed

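The 4 Drop-seq tables were used as raw UMI counts per gene and cell barcode, whole numbers as deposited by the authors. Per the submitters' processing notes, bcl2fastq 2.18.0.12, STAR 2.4.2a and Picard 2.2.4 were used with builds mm10 and GRCm38. The annotation, the counting strand and the choice of barcodes are not given in the sources used here. Of 20136 gene names, 18830 (93.5%) were found in GENCODE vM21.

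The members and gene lists were chosen with earlier results of these data known. Cells were kept with at least 400 genes and at most 10% mitochondrial UMIs. Scrublet, run per library, marked 58 of 4239 cells (1.37%) as doublets, and these were removed. The 2000 most variable genes, leaving out mitochondrial genes, the 9 members and the 4 pathway lists, were reduced to 30 principal components, and Leiden clustering was run at a resolution of 1. How markers became names was settled after the clusters were seen, and rebuilt names can differ from the authors' own. Committed precursors by the UMI rule had at least 2 UMIs of Gpr17, Bmp4 and Enpp6.

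Counts were summed per library and class (at least 10 cells, or 5 for committed precursors) and compared by the quasi-likelihood test of edgeR (version 4.0.16, R 4.3.3) after filterByExpr and TMM scaling, with Benjamini-Hochberg adjustment at 0.05 over all genes tested. The library was a block, because the sums of one library come from the same pool of mice. A standard error is the estimate divided by the root of its F statistic. For a single value the signs of the 4 library differences were flipped in every combination (exact sign-flip permutation, two-sided). A share at a fixed depth is the mean chance that 500 UMIs drawn from a cell hold the gene, without cells of fewer UMIs. Where a count was 0, the limit is 3 counts over the group's total. Limits and the 95% intervals cover counting error only.

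Genes named beside the members were, of each list, the up to 4 with the largest change past the threshold in mature cells against precursors and up to 2 in committed precursors against precursors, the 5 genes most correlated with the members' mean on log2(CPM + 1), of which 1 is not reported here, and the genes that define a class or kind. Dnajc7 and the motifs were chosen after the values were seen. On counts simulated from the real sums, edgeR recovered between 23.1% and 74.5% of genes changed 2-fold over 6 comparisons. Of those changed 4-fold it recovered between 79.2% and 99.4%. Of the genes called, between 2% (mature oligodendrocytes against precursors, 2-fold) and 9.24% (neurons against astrocytes, 2-fold) had not been changed. The share of wrong calls thus went above the threshold of 0.05 in some comparisons and stayed below it in others. Alternatives changed the filters, doublet removal, resolution, scaling, test (DESeq2 1.42.0), block, depth and committed rule, and left out each library. Clustering used scanpy 1.11.5, igraph 0.11.9 and scikit-learn 1.9.0, and tables and figures used matplotlib 3.10.9, pandas 2.3.3, scipy 1.17.1 and numpy 2.4.6 under Python 3.11.15.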

Additional observations from a re-analysis of the deposited data

Results flagged for a closer look

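Of 72 series of 4 library values (a member in a class), 6 held a library far from the other 3. A rate of 1 in 20 would give about 3.6, but that rate does not hold for sparse counts. A series with 1 UMI in all always stands apart in this way, so no conclusion is drawn from the number. In precursors of library 1, Cldn11 was at 33.0 CPM and at 0 in the other libraries, on 1 UMI. In mature oligodendrocytes of library 3, Mog was at 1687 CPM against 2339 to 2395 in the others, on 598 UMIs. In neurons of library 1, Mobp was at 5.81 CPM against 18.2 to 20.5, on 17 UMIs. In astrocytes of library 4, Ugt8a was at 26.0 CPM and at 0 in the others, on 2 UMIs. In the committed cluster of library 1, Mal was at 278 CPM against 0 to 45.0, on 11 UMIs, and Ermn was at 152 CPM against 0, on 6 UMIs.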

How the results depend on the processing

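Depth limits the precursors, where the 9 members had 66 UMIs in all, and the committed cluster, which had 36 cells. The classes were rebuilt from these cells, and a call between them shares that choice. Of the values for single members under the alternatives, 982 kept direction and side of the threshold, 69 lost the call, 38 gained it and 37 turned, 17 of these in precursors against astrocytes and 7 in precursors against neurons. Causes of these changes were not tested.

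All 9 members were higher in mature cells than in precursors under every alternative run. Between mature cells and committed precursors by the UMI rule the count was 8, and it was 5 without the library block, with DESeq2, with library totals, at most 5% mitochondrial UMIs and with doublets kept. Precursors against neurons gave 4 in the main setting, 2 without library 2, without library 3, at 800 genes or more and with cells thinned to 500 UMIs, and 7 with doublets kept. Against astrocytes the count of 1 became 2 without library 4, 6 at 800 genes (all lower) and 0 with thinned cells. Neurons against astrocytes went from 3 to 5 with DESeq2 and without library 2, and to 9 at 800 genes and with doublets kept. At 800 genes the class named astrocytes was 1 cluster of 91 cells with 2 astrocyte and 2 endothelial markers among its 10 leading genes, and library 4 gave no precursor sum, so both counts at 800 genes compare a mixed class. The kinds of mature cell went from 6 to 1 without the block and to 3 with DESeq2 and with thinned cells. Leaving out 1 library gave 6 to 9 members in committed against precursors (6 for the cluster without library 1), 6 to 9 in mature against committed, 2 to 4 in precursors against neurons, 1 to 2 against astrocytes, 3 to 5 in neurons against astrocytes and 4 to 6 between kinds. Without the replicate block, the pairing of sums by library, committed precursors against precursors stayed at 9, precursors against neurons gave 3 and against astrocytes 1.

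The Mbp share of neurons minus that of mature cells was 42.1 points at 800 genes and 34.0 with doublets kept, and 36.8 to 39.1 without 1 library. For low barcodes minus mature cells the difference was 8.85 to 11.7 points without 1 library, and 14.4 with barcodes of fewer than 100 genes. At 1000 UMIs a mature cell held 8.41 members, a committed precursor 4.66 and a precursor 0.386, and for committed precursors from the cluster alone the value at 500 UMIs was 2.64. Without 1 library these values at 500 UMIs ran from 7.30 to 7.47, from 3.65 to 3.92 and from 0.214 to 0.256.

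Estimates that turned are on the log2 scale. In 7 of the 37 a group had 0 UMIs, so the fitted value is no bound and shows no direction. These were Ermn in the committed cluster against precursors without library 1 (-6.54), Cldn11 in precursors against neurons without library 1 (-3.75), at 800 genes (-3.26) and with thinned cells (-2.73), Mal in precursors at 800 genes against neurons (-4.10) and against the mixed astrocyte class (-10.92), and Ugt8a in neurons against astrocytes without library 4 (1.87). Of the others, in the committed cluster without library 1, Mobp was -0.27 (3 UMIs) and Mal -1.15 (1 UMI) against precursors. With library totals Mbp was -0.15 in mature cells against that cluster. In precursors against neurons, Mbp was -0.10 without the low-count filter and -0.14 both without library 2 and with thinned cells. In precursors against astrocytes, Mbp was 0.26 with library totals, 0.043 without library 1 and 0.054 without library 4. Mobp was -0.0035 without the filter, -0.32 without library 2, -0.03 without library 3, -0.0096 and -0.19 with committed precursors from 1 and 3 UMIs, -0.24 from clusters alone, -2.48 at 800 genes (mixed class), -0.073 at 5% mitochondrial UMIs and -0.87 with doublets kept. Mal was -0.47 with doublets kept and -1.12 with thinned cells (1 UMI in precursors), and Ermn -4.53 at 800 genes (1 UMI in precursors, mixed class) and -1.05 with doublets kept. Leaving out 1 library gave Mbp -0.14 to 0.74 and Cldn11 up to 1.81 in precursors against neurons, and Mbp -1.05 to 0.054 and Mobp -0.32 to 0.23 in precursors against astrocytes. In neurons against astrocytes it gave Mag -0.42 to 0.25 and Ugt8a from -2.87. There Mag was 0.32 without the filter, 0.17 with library totals, 0.25 without library 2 and 0.26 with thinned cells, on 2 or 3 UMIs in astrocytes. Between the kinds of mature cell, Mbp was -0.051 without the filter, and without the deep cluster Mog was 0.061 and Mag 0.013, and Mag was 0.064 with thinned cells.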

Other observations

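A cluster of 91 endothelial-like cells, which also held mural markers (Rgs5 and Acta2 among its 10 leading genes, and 6 mural markers at 5710.45 to 9790.49 CPM in sum), belongs to none of the comparisons above. Mal was at 732, 301, 114 and 672 CPM in libraries 1 to 4, a mean of 455 ± 296 (SD, n = 4), and its 69 UMIs lay in 30 of 91 cells. Mal was thus present in all 4 libraries, although library 3 held only 2 of the UMIs. Mal made up 69 of their 125 member UMIs. The others were 18 of Mbp, 16 of Mobp, 7 of Cnp, 6 of Mag, 5 of Cldn11, 2 each of Ermn and Ugt8a and 0 of Mog. Neurons held 43 Mal UMIs in 36 of 1738 cells, and astrocytes 6 in 6 of 405. Which of the cells of this cluster carried Mal was not tested.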
